A study of Mus musculus with 4 samples.

Results

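Transcripts of 9 kinases that STK11 activates by phosphorylation were examined in the intact lung of the mouse embryo at E16.5. The genes were Mark1, Mark2, Mark3, Mark4, Nuak1, Nuak2, Brsk1, Brsk2 and Snrk, which are the AMPK-related substrates of STK11 other than AMPK itself and the SIK kinases. They were chosen by gene symbol, and all 9 were among the 22556 genes of the expression table. Control embryos had the genotype Shh-Cre; Stk11F/+, with 1 floxed Stk11 allele, and Shh-Stk11 embryos had the genotype Shh-Cre; Stk11F/F. Embryos of both genotypes therefore carried the Cre driver, the Controls had at most 1 intact Stk11 allele in recombined cells, and each genotype was represented by 2 libraries. Shh-Cre recombines in the endoderm-derived epithelium of the lung, so that mesenchymal, endothelial and blood cells kept their Stk11 alleles while their RNA was still part of every library. In such bulk samples, fewer cells of a type and less RNA per cell cannot be told apart. The labels call the strain C57BL/6, whereas the methods of the study speak of mixed backgrounds, and the litter of the embryos is not among the labels.

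STK11, also known as LKB1, works in a complex with a STRAD pseudokinase and the scaffold protein MO25. It switches on its substrate kinases by phosphorylating a conserved threonine in the activation loop, a flexible segment beside the catalytic site. The MARK kinases phosphorylate microtubule-associated proteins and act in cell polarity, and MARK3 also binds and phosphorylates KSR1, a scaffold of the RAF-MEK-ERK cascade. The NUAK kinases act on the myosin phosphatase complex and thereby on cell adhesion and contractility, the BRSK kinases are best known for the polarity of neurons, and SNRK is a more distant member of the same branch. RNA sequencing measures the transcripts of these kinases and does not report their phosphorylation.

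The coding sequences of the activation loops of Mark3, Nuak2, Brsk1 and Snrk are shown as 1 example of each family, because the threonine codon, in capitals, is where STK11 acts. They were read 5′ to 3′ on the coding strand from GENCODE M21 transcripts (GRCm38), each over the 27 codons from the start of the loop to its end.
Mark3: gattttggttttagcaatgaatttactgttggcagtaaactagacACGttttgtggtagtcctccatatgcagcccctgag
Nuak2: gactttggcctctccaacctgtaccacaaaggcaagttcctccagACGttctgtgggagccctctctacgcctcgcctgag
Brsk1: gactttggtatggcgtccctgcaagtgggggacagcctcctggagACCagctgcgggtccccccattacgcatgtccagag
Snrk: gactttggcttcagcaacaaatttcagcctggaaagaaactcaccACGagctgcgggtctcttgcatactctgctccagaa
The capitals mark codon 211 of Mark3, codon 220 of Nuak2, codon 189 of Brsk1 and codon 173 of Snrk, counted from the start codon. The Mark3 loop lies in 1 coding exon on the plus strand at chr12:111627121-111627201. The Nuak2 loop lies in 1 exon on the plus strand at chr1:132329964-132330044. The Brsk1 loop is split over 2 exons on the plus strand within chr7:4698761-4698943. The Snrk loop lies in 1 exon on the plus strand at chr9:122137484-122137564.

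The genes are spread over the genome (GRCm38), with Mark1 and Nuak2 on chromosome 1, Mark4, Brsk1 and Brsk2 on chromosome 7, Snrk on chromosome 9, Nuak1 on chromosome 10, Mark3 on chromosome 12 and Mark2 on chromosome 19, and all are annotated as protein-coding. A threonine codon stood at the matching place of the loop in all 9 genes. After translation, the loops of Brsk1 and Brsk2 were the same in 27 of 27 residues, those of Nuak1 and Nuak2 in 25, and those of any pair of MARK kinases in 25 or 26. The loop of Snrk shared 18 residues with each MARK kinase and 12 with each BRSK kinase. Over the whole aligned proteins, identity was 81.2% for the BRSK pair, 60.3% for the NUAK pair, 59.8% to 74.4% for pairs of MARK kinases and 27.5% to 37.7% between families. The 9 genes were nearly distinct from one another at the length of a 50-base read, and other genes were not compared. Of the 50-base stretches of their annotated transcripts, 16 were shared between Mark1 and Mark3 and 0 between any other members.

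The values were FPKM, a read density per kilobase of transcript that is also corrected for library size, so levels of different genes can be set side by side. The steps between low values gave relative depths within a factor of 1.23 between libraries. Stk11, the targeted gene, was at 44.0 and 45.5 FPKM in the Control libraries and at 29.5 and 26.0 FPKM in the Shh-Stk11 libraries, with a limma adjusted p of 0.0499 in the reported fit. This p was above 0.05 in 12 of 16 alternatives and at most 0.26, while the direction held in all 16. The Shh-Stk11 library with replicate number 2 expressed Y-linked genes (Ddx3y at 23.5 FPKM) and the other libraries did not exceed 0.0285 FPKM for this gene. The lung marker Nkx2-1 was at 170 to 207 FPKM in every library.

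The first question was which of the substrate kinases are transcribed in the E16.5 lung. Snrk and Mark3 were the most abundant, at a mean of 37.0 and 36.9 FPKM over the 4 libraries, above 88.9% and 88.8% of all genes in the table. Their ranges overlapped, and Snrk exceeded Mark3 in 1 of the 4 libraries, so that their order was not resolved. Mark2 followed at a mean of 15.7 FPKM and Mark4 at 12.0 FPKM. Nuak2, Nuak1 and Mark1 formed an intermediate group at means of 8.31, 7.95 and 6.07 FPKM. Brsk1 was low at a mean of 2.32 FPKM and Brsk2 lower still at 0.0575 FPKM.

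Neighbours in this order were separated by non-overlapping ranges at 4 places, between Mark3 and Mark2, Mark2 and Mark4, Mark1 and Brsk1, and Brsk1 and Brsk2. The lowest Mark3 value of 35.2 FPKM lay well above the highest Mark2 value of 18.4 FPKM, and Mark3 was 2.34 times as abundant as Mark2 on average. The gap between Mark2 and Mark4 was narrow, with a lowest Mark2 value of 13.5 FPKM and a highest Mark4 value of 13.2 FPKM. Mark4 and Nuak2, Nuak2 and Nuak1, and Nuak1 and Mark1 overlapped in their ranges, although Nuak1 exceeded Mark1 in 4 of 4 libraries.

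**Figure D1:**
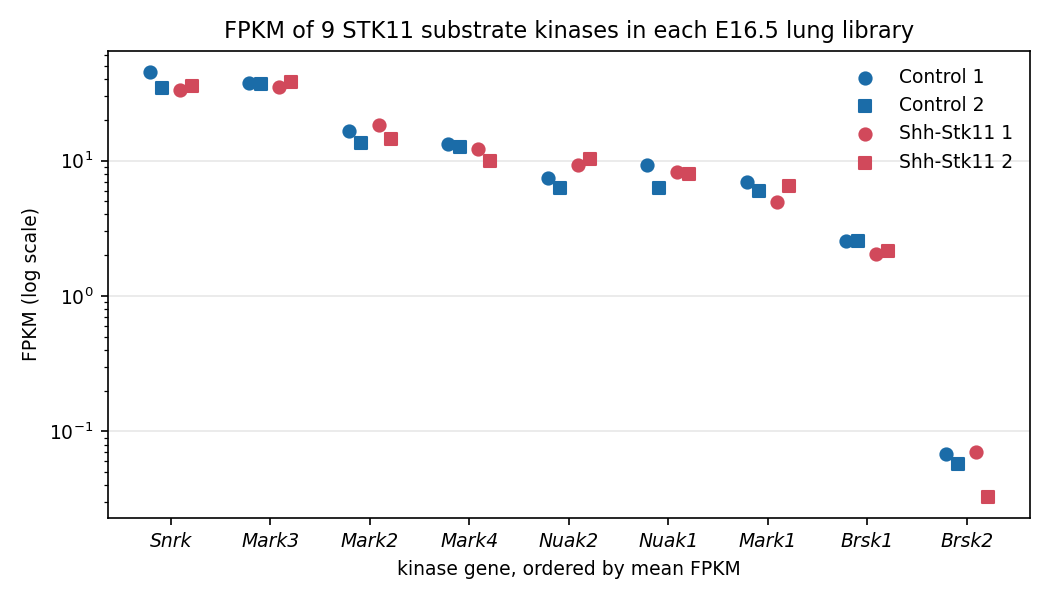
FPKM of the 9 kinase genes on a log axis, ordered by mean level, with 1 point per library (blue, Control; red, Shh-Stk11; circle, replicate 1; square, replicate 2). Snrk and Mark3 share the top, Brsk2 lies at or below 0.071 FPKM, and the red points lie above both blue points only for Nuak2.

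Mark3 transcripts made up the largest share of the MARK pool in each of the 4 libraries. The 4 MARK genes together were at 74.2 and 68.5 FPKM in Control, against 70.8 and 69.0 FPKM in Shh-Stk11 lungs. Mark3 contributed 50.7% and 53.2% of this sum in the Control libraries and 49.7% and 55.1% in the Shh-Stk11 libraries, 52.0 ± 1.77% against 52.4 ± 3.80% (SD, n = 2 each; two-sided exact permutation p = 1). The Shh-Stk11 libraries thus enclosed the Controls. Mark2 contributed 19.7% to 26.0% and Mark1 7.02% to 9.33%, with overlapping groups for both. Mark4 contributed 17.7% and 18.4% in Control against 17.2% and 14.5% in Shh-Stk11 lungs, where the groups did not overlap (two-sided exact permutation p = 0.333, the smallest that 2 against 2 libraries allow).

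The sum over all 9 kinases was 128 ± 14.7 FPKM (SD, n = 2) in Control, against 124 ± 1.18 FPKM (SD, n = 2) in Shh-Stk11 lungs. The values of 139 and 118 FPKM in the Controls enclosed those of 123 and 125 FPKM in the Shh-Stk11 libraries (two-sided exact permutation p = 1). Snrk and Mark3 together formed the larger part of this pool, with 26.7% to 32.5% from Snrk and 27.2% to 31.0% from Mark3. The share of Nuak2 was 5.38% and 5.33% in Control and 7.51% and 8.18% in Shh-Stk11 lungs, and its groups did not overlap (two-sided exact permutation p = 0.333). The groups did not overlap in the other direction for the share of Snrk, at 32.5% and 29.0% in Control against 26.7% and 28.5% in Shh-Stk11 lungs. The same held for the share of Brsk1, at 1.83% and 2.17% against 1.67% and 1.71% (two-sided exact permutation p = 0.333 for each). This p is the smallest that 2 against 2 libraries allow, and shares of 1 sum depend on one another. The FPKM of Snrk itself overlapped between the groups. For FPKM, the groups did not overlap in 46.8% of all genes tested. Brsk2 gave at most 0.0576% of the pool.

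**Figure D2:**
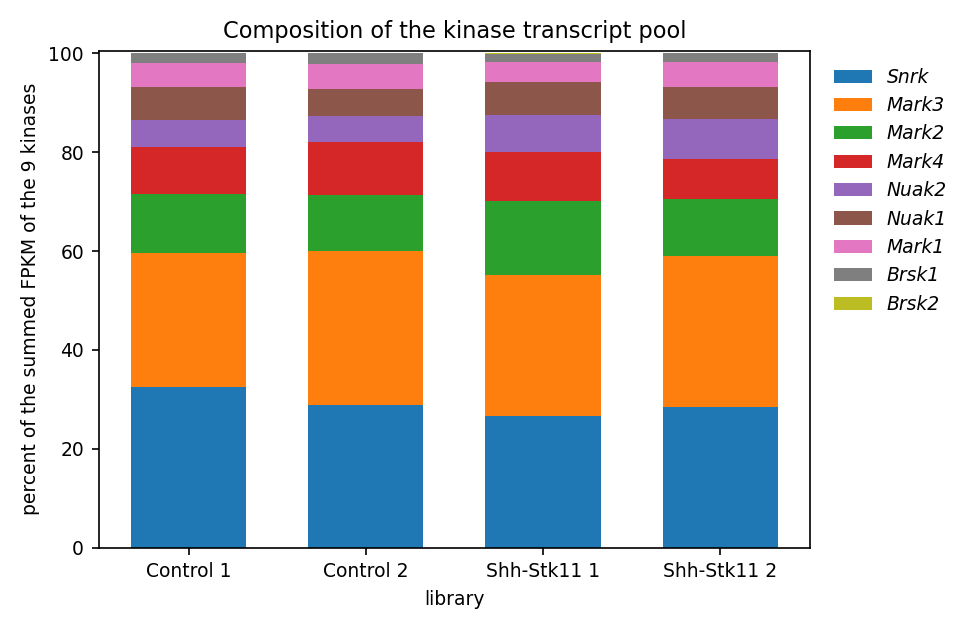
Percent of the summed FPKM of the 9 kinases that each gene contributed in each library, stacked from Snrk at the bottom to Brsk2 at the top. Snrk (26.7% to 32.5%) and Mark3 (27.2% to 31.0%) fill the larger part of every bar. The Nuak2 segment is wider in both Shh-Stk11 libraries (7.51% and 8.18%) than in both Controls (5.38% and 5.33%), while the Snrk segment is narrower (26.7% and 28.5% against 32.5% and 29.0%). The FPKM of Snrk itself overlapped between the genotypes.

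The second question was whether loss of epithelial Stk11 changed the transcript levels of its substrate kinases. Of the 9 kinases, 8 had a mean of at least 0.5 FPKM and were tested, and Brsk2 was below this filter. No member passed an adjusted p of 0.05 in limma (0 of 8), where 2.27% of all 13770 genes tested did. By unadjusted limma p under 0.05 there was 1 member, Nuak2, beside 15.2% of all genes in either direction and 8.04% that, like Nuak2, were higher. The groups did not overlap for 3 of the 8, against 46.8% of all genes tested, so that this count does not set the kinases apart. The tested members had a median log2 fold change of -0.10, with 3 positive and 5 negative, while the median of all genes tested was -0.05 and that of their absolute log2 fold changes 0.17, close to the 0.19 of the kinases. With 2 libraries per genotype these intervals remain wide, and a missed threshold does not show that a level was the same.

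**Figure D3:**
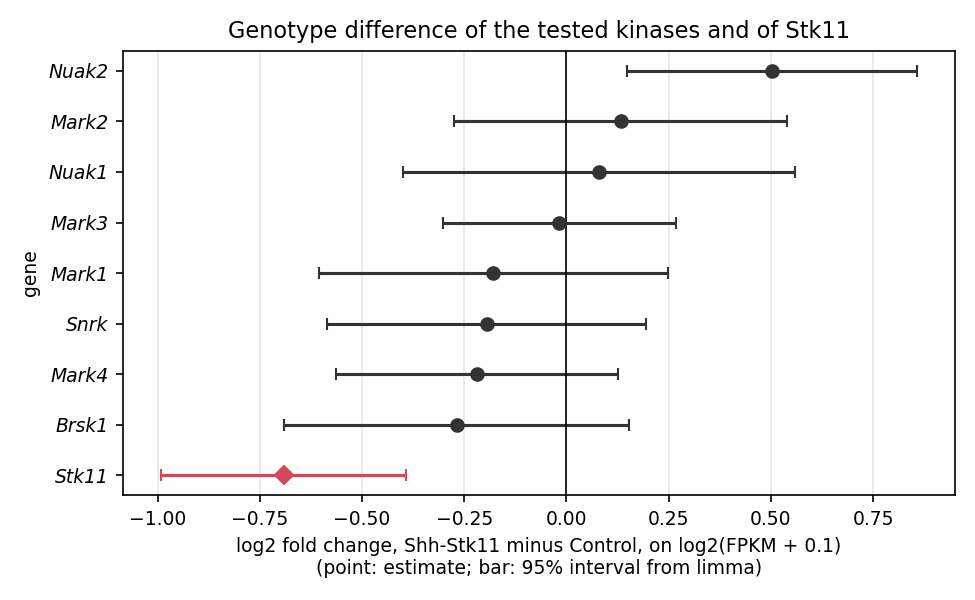
Log2 fold change (Shh-Stk11 minus Control, on log2(FPKM + 0.1)) of the 8 tested kinases as black circles and of Stk11 as a red diamond, with 95% intervals from limma as bars. The interval of Nuak2 (0.15 to 0.86) and that of Stk11 (-0.99 to -0.39) lie on 1 side of 0, and the other 7 include 0.

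**Figure D4:**
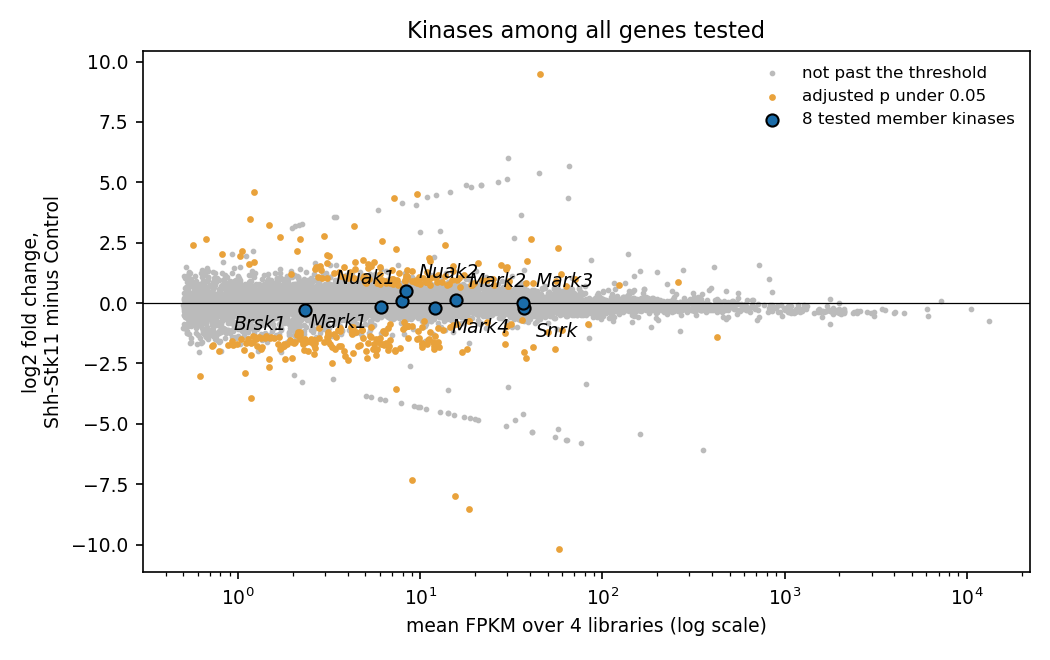
Log2 fold change against mean FPKM (log axis) for all 13770 genes tested, in orange where the limma adjusted p was under 0.05 and in grey otherwise, with the 8 tested kinases in blue. All 8 kinases lie in the grey band, between -0.27 for Brsk1 and 0.50 for Nuak2.

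Among the MARK kinases, Mark3 showed the smallest difference and the narrowest interval. Mark3, a microtubule affinity-regulating kinase also called C-TAK1, was at 37.7 and 36.5 FPKM in Control, against 35.2 and 38.1 FPKM in Shh-Stk11 lungs. The Control values lay between the Shh-Stk11 values. Its log2 fold change was -0.02 (SE 0.118, 95% interval -0.30 to 0.27, limma adjusted p 0.959), which bounds the ratio of Shh-Stk11 to Control between 0.811 and 1.20 in whole lung RNA. The sign of this estimate was positive after quantile normalization (0.044), median-ratio scaling (0.024) and removal of the trend on transcript length and GC content (0.085), and also without the first Control (0.0050) or the first Shh-Stk11 library (0.038).

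Mark2, also known as PAR-1b and active in epithelial polarity, was at 16.5 and 13.5 FPKM in Control, against 18.4 and 14.5 FPKM in Shh-Stk11 lungs. The groups overlapped, and the replicates of either genotype differed by more than the genotypes did. The log2 fold change was 0.13 (SE 0.170, 95% interval -0.27 to 0.54, limma adjusted p 0.760). Without the first Shh-Stk11 library, the highest of the 4, it was -0.036, and without the second Control, the lowest, -0.011.

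Mark1 was at 6.91 and 5.96 FPKM in Control, against 4.97 and 6.45 FPKM in Shh-Stk11 lungs, and the groups overlapped (log2 fold change -0.18, 95% interval -0.60 to 0.25, limma adjusted p 0.689). Without the first Shh-Stk11 library, the lowest of the 4, the difference was 0.0058, and without the second it was -0.36. Mark4 was at 13.2 and 12.6 FPKM in Control, against 12.2 and 10.001 FPKM in Shh-Stk11 lungs. Both Shh-Stk11 values of Mark4 lay below both Control values, as did 27.6% of all genes tested, but 1 of them by a small margin. Its log2 fold change was -0.22 (SE 0.144, 95% interval -0.56 to 0.13, limma adjusted p 0.533), and it was -0.11 after removal of the length and GC trend, -0.08 without the second Shh-Stk11 library and -0.36 without the first.

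The 2 NUAK kinases had similar mean levels but not the same values by genotype. Nuak2, which is also named SNARK and acts on myosin phosphatase, was at 7.46 and 6.28 FPKM in Control, against 9.26 and 10.2 FPKM in Shh-Stk11 lungs. Nuak2 was above both Controls in either Shh-Stk11 library, which held for 19.2% of all genes tested. The means were 6.87 ± 0.835 and 9.75 ± 0.687 FPKM (SD, n = 2 each), a ratio of 1.42. The log2 fold change of 0.50 (SE 0.148, 95% interval 0.15 to 0.86) had an unadjusted limma p of 0.0129 and an adjusted p of 0.165, which placed it at rank 1071 of the genes tested. It stayed positive in all 16 alternatives, between 0.38 and 0.63, with limma adjusted p between 0.0911 and 0.443, and was 0.43 without the Y-expressing library.

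Nuak1, also called ARK5, was at 9.30 and 6.30 FPKM in Control, against 8.25 and 7.95 FPKM in Shh-Stk11 lungs. The Controls enclosed the Shh-Stk11 values, and the log2 fold change of 0.08 (SE 0.1997, 95% interval -0.40 to 0.56, limma adjusted p 0.890) rested on the Control library chosen, being 0.36 without the first Control and -0.20 without the second. Nuak1 had the largest difference between the Control replicates of all members, at -0.56 on the log2 scale. The ratio of Nuak2 to Nuak1 within a library, a quantity chosen after its values were seen, was 0.802 and 0.997 in Control and 1.12 and 1.29 in Shh-Stk11 lungs. The groups did not overlap, and the exact two-sided permutation p was 0.333, the smallest possible.

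The BRSK kinases were close to the lower end of the range. Brsk1, also called SAD-B, was at 2.54 and 2.55 FPKM in Control, against 2.06 and 2.14 FPKM in Shh-Stk11 lungs, and the groups did not overlap, as for the 27.6% of all genes tested that were lower in this way. Over its longest coding transcript these levels corresponded to an estimated 270, 225, 177 and 198 reads. The log2 fold change was -0.27 (SE 0.176, 95% interval -0.69 to 0.15, limma adjusted p 0.532), and -0.12 after removal of the length and GC trend. Its replicates differed by 0.0038 and 0.056 on the log2 scale, and the SE came from the variance that limma borrows from genes of a similar level. Beside Brsk1, the neuronal marker Stmn2 was at 8.44 and 9.17 FPKM in Control, against 6.12 and 7.05 FPKM in Shh-Stk11 lungs (limma adjusted p 0.229). Together with Tubb3, Syt1, Snap25, Elavl4 and Elavl3, which were below the filter, it summed to 9.30 and 10.6 FPKM in Control, against 6.79 and 7.56 FPKM in Shh-Stk11 lungs, and nearly all of this sum over 6 neuronal markers came from Stmn2. Among the low genes, Tubb3 was at 0.156 and 0.688 FPKM in Control, against 0.0641 and 0.0991 FPKM in Shh-Stk11 lungs, and Syt1 was at 0.426 and 0.337 FPKM, against 0.245 and 0.236 FPKM. Snap25, Elavl4 and Elavl3 overlapped between the groups and did not exceed 0.265 FPKM. The part of neurons in the Brsk1 values was not tested.

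Brsk2 was at 0.0683 and 0.0577 FPKM in Control, against 0.0710 and 0.0330 FPKM in Shh-Stk11 lungs. These values corresponded to an estimated 10, 7, 9 and 4 reads. The size of difference that so few reads could show was not tested. Where all genes were fitted without a filter, its log2 fold change was -0.11 (95% interval -0.65 to 0.43, limma adjusted p 0.969). The pseudocount of 0.1 FPKM exceeds each Brsk2 value, so that this estimate and its interval are drawn towards 0.

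Snrk was at 45.1 and 34.1 FPKM in Control, against 32.9 and 35.6 FPKM in Shh-Stk11 lungs. The first Control stood above the other 3 libraries, and the groups overlapped. The log2 fold change was -0.20 (SE 0.162, 95% interval -0.58 to 0.19, limma adjusted p 0.624), and it was 0.0048 without the first Control library and -0.40 without the second.

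**Figure D5:**
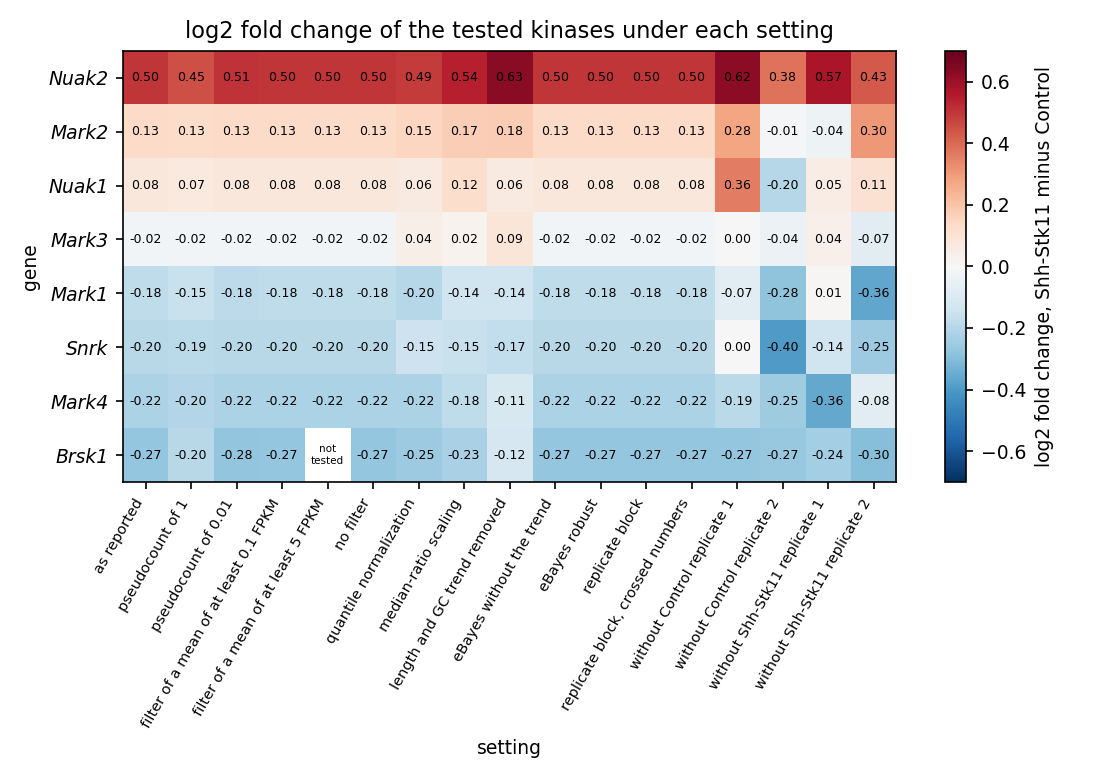
Log2 fold change (Shh-Stk11 minus Control) of each tested kinase, in rows, under the reported fit and 16 alternative settings, in columns, with red above and blue below 0. The Nuak2 row is red throughout (0.38 to 0.63), the Brsk1 and Mark4 rows are blue wherever tested (Brsk1 fell below the filter of 5 FPKM), and the rows of Mark1, Mark2, Mark3, Nuak1 and Snrk change sign in at least 1 column.

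Genes that regulate these kinases or act with them were then examined, from lists of the STK11 complex, other substrate kinases, related kinases, MARK regulators and targets, 14-3-3 proteins, the ERK cascade, myosin phosphatase and BRSK targets. Apart from Stk11, 45 of these genes were tested, 3 of them rose and 0 fell past an adjusted p of 0.05, where 0.98% of all genes rose and 1.29% fell. The lists were chosen with earlier results of these data known, so that these shares are not an independent comparison. At an unadjusted limma p under 0.05, 5 were higher and 1 was lower, beside 8.04% of all genes higher and 7.18% lower. The median log2 fold change of the 45 was -0.03. Besides Stk11, the genes of its complex did not pass the threshold. The most abundant was Cab39, the gene of the MO25 scaffold, at 48.1 to 56.2 FPKM. Its paralog Cab39l averaged 33.7 ± 0.358 FPKM (SD, 2 libraries) for Control, against 21.99 ± 2.27 FPKM for Shh-Stk11, without overlap between the groups, as for 27.6% of all genes tested (limma adjusted p 0.0705), and was the gene lower at the unadjusted threshold.

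Both MARK regulators past the threshold rose. Taok1, which encodes a kinase that can also phosphorylate the MARK activation loop, was at 7.33 and 6.21 FPKM in Control, against 15.05 and 12.8 FPKM in Shh-Stk11 lungs (a log2 fold change of 1.03, SE 0.152, limma adjusted p 0.0289). Usp9x, an X-linked gene for a deubiquitinase that acts on MARK4 and NUAK1, was at 4.27 and 3.37 FPKM in Control, against 12.2 and 8.22 FPKM in Shh-Stk11 lungs (a log2 fold change of 1.38, SE 0.226, limma adjusted p 0.0384). Without the Y-expressing library the log2 fold change of Usp9x was 1.66. The other 3 tested regulators did not pass, among them the atypical protein kinase C gene Prkci, the most abundant, at 42.6 to 54.6 FPKM.

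In the ERK cascade, Braf, a RAF kinase, was at 4.37 and 4.12 FPKM in Control, against 7.97 and 7.43 FPKM in Shh-Stk11 lungs (a log2 fold change of 0.84, SE 0.139, limma adjusted p 0.0385). The other 7 tested genes of the cascade did not pass, with Mapk3, which encodes ERK1 and was the most abundant, at 113 and 114 FPKM in Control, against 92.6 and 98.0 FPKM in Shh-Stk11 lungs (limma adjusted p 0.403). Ksr1, the scaffold bound by MARK3, was at 5.10 and 5.15 FPKM in Control, against 4.82 and 3.57 FPKM in Shh-Stk11 lungs (a log2 fold change of -0.30, limma adjusted p 0.511). The transcripts of Taok1, Usp9x and Braf are long, at 12409, 11887 and 9728 bases, and poor in GC, at 40.6%, 40% and 42.6%. With the trend on length and GC removed, their log2 fold changes were 0.56, 0.89 and 0.51 and none passed (limma adjusted p 0.0835, 0.0875 and 0.147). With 1 library left out, the log2 fold changes ran from 0.91 to 1.15 for Taok1, 1.10 to 1.66 for Usp9x and 0.80 to 0.89 for Braf. Such fits leave 1 library in a genotype. The members have shorter transcripts of 2996 to 5558 bases with a GC content of 50.4% to 60.6%. Their log2 fold changes also moved with this trend removed, from 0.50 to 0.63 for Nuak2 and from -0.22 to -0.11 for Mark4. Brsk1 went from -0.27 to -0.12 and Mark3 from -0.02 to 0.085. The part of length and GC content in these values was not tested.

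No gene passed the threshold in the lists of MARK targets (0 of 8 tested), 14-3-3 proteins (0 of 7), myosin phosphatase (0 of 4), BRSK targets (0 of 5), other STK11 substrate kinases (0 of 5) or related kinases outside the STK11 targets (0 of 2). Within the 14-3-3 list, the most abundant gene was Ywhae at 477 to 513 FPKM. Within the myosin phosphatase list it was Ppp1cb, the catalytic subunit, at 108 to 118 FPKM. Among the MARK targets it was Arhgef2, a microtubule-bound exchange factor, at 30.8 to 38.2 FPKM. Cdc25b, a cell cycle phosphatase on the BRSK list, was at 19.1 to 23.04 FPKM and the related kinase gene Melk at 16.1 to 22.4 FPKM. The lists, in the order given first, held 1, 0, 1, 0, 0 and 0 genes with an unadjusted limma p under 0.05. The gene among the MARK targets was Rab11fip2, a recycling endosome gene, with a log2 fold change of 0.40 (limma adjusted p 0.276). The gene of the myosin phosphatase list was Ppp1r12a, which encodes the MYPT1 subunit on which NUAK kinases act, at 23.3 and 21.3 FPKM in Control, against 31.3 and 28.8 FPKM in Shh-Stk11 lungs (a log2 fold change of 0.43, limma adjusted p 0.159). Mapt, which encodes the microtubule-associated protein tau, had a log2 fold change of -0.30 (limma adjusted p 0.428), and the SIK gene Sik1, the most abundant of its list, one of 0.30 (limma adjusted p 0.475). The largest changes in the lists of 14-3-3 genes and related kinases were 0.18 for Ywhaz (limma adjusted p 0.609) and -0.13 for Hunk (limma adjusted p 0.707).

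The pattern over the 4 libraries was compared between each tested kinase and 53 other genes of the same lists, as the root mean square difference of centred log2 values. The closest gene was Mapk3 for Brsk1 (0.0112, where the spread of Brsk1 about its own mean was 0.136), Sik3 for Nuak1 (0.0223, own spread 0.202), Rab11fip2 for Nuak2 (0.0590, own spread 0.270) and Hunk for Mark4 (0.0622, own spread 0.150). It was Ywhab for Mark3 (0.0239, own spread 0.0437), Mapt for Snrk (0.0667, own spread 0.177), Ywhaz for Mark2 (0.109, own spread 0.171) and Prkcz for Mark1 (0.110, own spread 0.175). With 4 libraries such likeness is a description only.

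Marker genes of the cell types in the lung were read for the same libraries. The 8 multiciliated cell genes summed to 104 and 109 FPKM in Control, against 31.5 and 31.4 FPKM in Shh-Stk11 lungs, and 6 of the 7 tested fell past the threshold. The 8 endothelial genes summed to 769 and 661 against 530 and 566 FPKM and the 5 red blood cell genes to 165 and 166 against 97.1 and 100 FPKM, with 0 of 8 and 1 of 5 past the threshold, the latter lower. Their median log2 fold changes were -0.38 and -0.57, beside -0.05 for all genes tested. Most of the red blood cell sum came from Alas2, at 112 and 111 FPKM in Control, against 74.6 and 75.6 FPKM in Shh-Stk11 lungs. The lists of neuroendocrine, general epithelial, mesenchymal, smooth muscle, immune and heart muscle genes had no member past the threshold, with median log2 fold changes of 0.07, 0.20, -0.21, -0.05, -0.03 and -0.97. The heart muscle genes summed to 101.2 and 223 FPKM in Control, against 128 and 49.5 FPKM in Shh-Stk11 lungs, so that the groups overlapped and the replicates of each genotype differed widely. The neuroendocrine genes ran from -0.47 to 1.11 and the general epithelial genes from -0.76 to 0.49 on the log2 scale. The epithelial sum was 18180 and 16576 FPKM in Control, against 8879 and 13002 FPKM in Shh-Stk11 lungs, and was lower while the median was higher, with nearly all of the sum from Sftpc, a surfactant gene of alveolar epithelial cells (log2 fold change -0.76, limma adjusted p 0.447). The part of these shifts in the levels of the kinases was not tested.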

How the data were processed

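The samples were 4 RNA-seq libraries of whole E16.5 lungs, 2 Control and 2 Shh-Stk11. The authors sequenced single-end 50-base reads and deposited the FPKM of every gene in 1 table. The submitters' processing notes name TopHat2 2.0.13, Cufflinks 2.2.1 and the builds GRCm38 and mm9 without their roles, so positions are those of GENCODE M21 (GRCm38) and not of the deposited table.

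The values were analysed as log2(FPKM + 0.1) in R 4.3.3 with limma 3.58.1. A gene was fitted where its mean reached 0.5 FPKM, 13770 in all, with genotype as the only term and eBayes with a trend on expression (4.48 prior and 2 residual degrees of freedom). Tests were two-sided, with Benjamini-Hochberg adjustment over all genes tested and a threshold of 0.05. Fold changes are on the log2(FPKM + 0.1) scale, which understates those of low genes. Sums, shares and ratios were compared by exact permutation tests. Exact permutation p-values measure the spread between libraries, which the methods describe as independent biological samples. Limma p-values also draw on the variance of other genes of a similar level, through the prior degrees of freedom.

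Depth was estimated from 1717 low genes, of which 78% gave values that were whole multiples of a step within 0.2% (multiples up to 10, values under 0.3 FPKM). Absolute read numbers rest on annotated lengths less 200 bases, contain any scaling by the authors and cover counting error only. Length and GC content came from each gene's longest transcript, protein-coding where possible, matched for 98.9% of the genes tested, and their trend was removed per library with natural splines of 5 degrees of freedom. Activation loops were found in translated GENCODE transcripts with Biopython 1.88, by the flanking motifs of the loop. The script was tested on simulated data.

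The members and lists were chosen with earlier results of these data known. The rule for named genes took Stk11, all members, of each pathway list the most abundant gene, the gene with the largest change and those past the threshold, and a few markers. Ksr1, Cab39l, Sftpc and the neuronal markers other than Stmn2 were named after their values were seen. One neuronal marker of the list is not reported here, and the sum covers the other 6. The alternatives were other pseudocounts, filters, scalings and variance settings, removal of the length and GC trend, a replicate block, and each library left out.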

Additional observations from a re-analysis of the deposited data

How the results depend on the processing

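No member passed the adjusted p of 0.05 in either direction under any of the 16 alternatives. Nuak2 stayed positive and Mark4 and Brsk1 stayed negative wherever they were tested (Brsk1 fell below a filter of 5 FPKM), while Mark3 turned positive with quantile normalization (0.044), median-ratio scaling (0.024) and the length and GC trend removed (0.085). With 1 library left out, where the lone sample is assumed to vary like the others, the log2 fold change ran from -0.074 to 0.038 for Mark3, -0.36 to 0.0058 for Mark1, -0.036 to 0.30 for Mark2, -0.20 to 0.36 for Nuak1 and -0.40 to 0.0048 for Snrk, and the median of the members from -0.22 to 0.0049. These alternatives have fewer samples, and for the others the cause was not tested.

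Of all genes, 135 were higher and 178 lower in the reported fit. The counts were 0 and 1 without a filter, 89 and 104 after removal of the length and GC trend, 303 and 284 with robust eBayes, and 90 lower with a filter of 5 FPKM. They ran from 40 to 129 higher and 64 to 190 lower with 1 library left out. The 3 pathway genes that rose were 0 without a filter, 1 with quantile normalization, 0 with the length and GC trend removed, 1 with eBayes without the trend, and 0 to 2 with 1 library left out, and 1 fell with robust eBayes. Stk11 had log2 fold changes of -0.67 with a pseudocount of 1, -0.69 with a filter of 0.1 FPKM, no filter or no trend, -0.62 with quantile normalization, -0.65 with median-ratio scaling, -0.53 with the length and GC trend removed and -0.78 to -0.60 with 1 library left out, with limma adjusted p of 0.0509, 0.0519, 0.26, 0.0915, 0.0817, 0.0608 and 0.0875 for the first 7 in the order pseudocount, filter, no filter, no trend, quantile, median ratio and trend removed.

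Libraries of the 2 genotypes share replicate numbers, but nothing pairs them, and the deviations of same-numbered libraries correlated at -0.11. With a replicate block, 6 genes were higher and 7 lower, 0 pathway genes rose and Stk11 had a log2 fold change of -0.69 (limma adjusted p 0.154). With the numbers crossed, an alternative chosen after seeing the data, 360 genes were higher and 315 lower. Another scaling moved the median of all genes from -0.05 to at most -0.0076. Brsk2 had at most an estimated 10 reads per library, and the size of difference that this could show was not tested.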
